A study of Mus musculus with 9 samples.

Results

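ABC transporters are membrane proteins that use the energy of ATP to move lipids, drugs, peptides, metals or ions across membranes, and the genes of this family were followed through the serial culture of embryonic mouse lung cells. The members were chosen by name, as protein-coding genes with a symbol made of Abc, a subfamily letter from a to g and a number, with or without a final letter a to c. This gave 50 of the 27179 gene IDs in the count table. The choice also named the group of Abca5, Abca6, Abca8a, Abca8b and Abca9 and the gene Abca3 because of how they changed in these libraries, so their values are given as a description without a p-value. Lungs of C57/B6 mouse embryos at E11.5 were dissociated, cells that stuck to plastic within an hour were left behind, and the remaining cells were grown as floating spheres, called pneumospheres, with basic FGF, EGF and heparin at low oxygen. RNA was taken on day 3, day 7 and day 10, with 3 libraries per day, and the spheres were split on days 3 and 7. All groups share strain, embryonic stage, medium and passage scheme, no genotype or drug differs between them, and day 3 serves as the reference. The number of splits rises with the day, so time in culture and splitting cannot be told apart.

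Whether the libraries of the same day had separate cultures or litters as their source is not stated in the labels, so p-values measure the spread between these libraries, which may be technical. Library totals lay between 20716878 and 30466712 counts. The limit that a count of 0 allows, 3 counts, was 0.0985 to 0.145 CPM (counts scaled to 1 M per library), for counting error only. Markers of lung epithelium summed to 1.13 to 1.94 CPM on day 3 and to 0.106 to 0.320 CPM on day 10, and Nkx2-1, the transcription factor that defines lung epithelium, had no count in any library. Markers of mesenchyme summed to 14542 to 16297 CPM on day 3 and 42122 to 47985 CPM on day 10, while erythroid markers went from 987 to 1174 CPM down to 0.565 to 1.04 CPM. In these bulk samples fewer cells of a type and less RNA per cell cannot be told apart. Day 3 replicate 2 had 7.83% of its counts in gene IDs without a RefSeq name, against 0.482% to 0.868% in the other 8 libraries.

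The family divides into subfamilies with different cargoes. Many A and G members and Abcb4 carry cholesterol or phospholipids, the B and C members include the multidrug pumps, most D members bring fatty acids into peroxisomes, and the E and F members have lost their membrane part and act on ribosomes. In the lung, Abca3 loads phospholipid into the lamellar bodies of alveolar type 2 cells, from which surfactant is secreted.

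Abca8b, Abca8a, Abca9, Abca6 and Abca5 stand side by side in this order on chromosome 11 of GRCm38, all on the minus strand. Together they span 109932206 to 110337723 in the RefSeq gene annotation, with no other protein-coding gene between them and gaps of 3168 to 29359 bases. The RefSeq promoter table (GRCm38.p6) held 45 start sites of 38 members and covered 4 of the 5 neighbours. The 250 bases before their starts are shown because these adjacent genes differed in how far their levels moved. Capitals mark matches to any of 5 short motifs on either strand: the TATA box letters TATAAA, the CCAAT box, the GC box letters GGGCGG, the E-box letters CACGTG, and AGGTCA, a core that nuclear receptors bind. No match overlapped another motif.

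Abca8b, chr11:109995846-109996095, minus strand: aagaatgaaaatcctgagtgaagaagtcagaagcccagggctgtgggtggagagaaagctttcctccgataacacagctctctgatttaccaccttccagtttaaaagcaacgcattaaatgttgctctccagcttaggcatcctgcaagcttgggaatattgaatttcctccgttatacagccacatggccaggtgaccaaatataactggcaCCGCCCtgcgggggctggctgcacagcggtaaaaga
Abca8a, chr11:110095938-110096187, minus strand: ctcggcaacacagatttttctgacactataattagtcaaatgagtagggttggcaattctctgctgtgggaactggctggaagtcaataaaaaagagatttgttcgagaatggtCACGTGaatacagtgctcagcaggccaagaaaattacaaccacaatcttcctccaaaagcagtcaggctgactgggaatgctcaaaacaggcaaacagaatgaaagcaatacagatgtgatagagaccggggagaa
Abca9, chr11:110168154-110168403, minus strand: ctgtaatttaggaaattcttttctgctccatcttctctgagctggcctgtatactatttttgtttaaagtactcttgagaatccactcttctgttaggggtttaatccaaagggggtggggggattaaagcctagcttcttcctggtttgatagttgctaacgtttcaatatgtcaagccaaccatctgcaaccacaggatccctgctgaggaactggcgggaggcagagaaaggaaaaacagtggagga
Abca5, chr11:110337717-110337966, minus strand: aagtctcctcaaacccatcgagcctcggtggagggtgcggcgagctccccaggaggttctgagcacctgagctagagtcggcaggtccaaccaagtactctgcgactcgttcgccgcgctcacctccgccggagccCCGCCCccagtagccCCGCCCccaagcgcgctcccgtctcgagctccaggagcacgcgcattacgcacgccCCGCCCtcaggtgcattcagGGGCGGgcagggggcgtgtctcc

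The window of Abca5 held 4 matches to GGGCGG and 69.2% G and C. That of Abca8b held 1 such match and 48.8% G and C. The window of Abca8a held a CACGTG and 43.2% G and C, and that of Abca9 held none of the 5 motifs and 44.4% G and C. Of all 32851 promoter windows of this length in the table, 32.7% held GGGCGG and 6.02% held CACGTG. Among the 45 windows of members, 20 held GGGCGG and 5 held CACGTG. A match is only a run of letters. All 4 starts lie inside the RefSeq gene spans, so the windows overlap those spans in part or whole.

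The coding sequences of the 5 neighbours matched each other at 55.9% to 73.5% of aligned bases, with Abca8a and Abca8b the closest pair. Their longest identical run was 97 bases, printed here because a read within it fits both genes:

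Abca8a and Abca8b, shared coding run: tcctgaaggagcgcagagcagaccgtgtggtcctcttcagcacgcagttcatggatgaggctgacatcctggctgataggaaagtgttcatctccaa

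Of all 50-base windows in the transcripts of Abca8a, 1.64% also occurred in another member, and of those of Abca8b, 1.42%. How reads that fit several places were counted is not given in the sources used here.

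Abca8a is a full-size lipid transporter of the A subfamily (Entrez 217258, chromosome 11, 110025634 to 110097580). In level per length it ranked 29 of the 50 members on day 3 and highest on day 10. Its level was 1.66, 2.76 and 3.13 CPM in the 3 libraries of day 3, 135, 72.9 and 112 CPM on day 7, and 283, 283 and 486 CPM on day 10. The 3 days did not overlap, and day 10 replicate 3 was the highest library. The fitted log2 change was 5.41 (SE 0.36) from day 3 to day 7, 1.72 (SE 0.28) from day 7 to day 10 and 7.12 (SE 0.38) over the whole course.

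Its close relative Abca8b (Entrez 27404) started higher and moved less. It had 14.5, 19.7 and 12.5 CPM on day 3, 67.8, 39.1 and 42.7 CPM on day 7, and 80.8, 106 and 114 CPM on day 10. Here too every library of a later day lay above every library of the earlier day, and the log2 change from day 3 to day 10 was 2.69 (SE 0.25).

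Abca9 (Entrez 217262) was the most abundant of the 5 on day 3. Its libraries read 75, 101 and 89.5 CPM on day 3, 213, 163 and 168 CPM on day 7, and 142, 243 and 270 CPM on day 10. Days 7 and 10 overlapped, since day 10 replicate 1 was the lowest of those 6 libraries. The log2 change from day 3 was 1.03 (SE 0.22) on day 7 and 1.30 (SE 0.22) on day 10.

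Abca6 (Entrez 76184) read 17.1, 25.4 and 16.0 CPM on day 3, 73.2, 44.6 and 52.4 CPM on day 7, and 48.5, 67.6 and 126 CPM on day 10. Both later days lay above day 3 and overlapped each other, and the highest value came from day 10 replicate 3. The log2 change from day 3 to day 10 was 2.05 (SE 0.35).

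Abca5 (Entrez 217265), whose protein sits in lysosomes and late endosomes, moved least. It had 26.2, 32.5 and 23.1 CPM on day 3, 28, 26.1 and 26.2 CPM on day 7, and 32.2, 38.1 and 34.2 CPM on day 10. The libraries of days 3 and 7 were intermixed, and those of days 3 and 10 overlapped at day 3 replicate 2. The log2 change was -0.03 (SE 0.12) by day 7, a value that turned to 0.12 without day 3 replicate 2, and 0.35 (SE 0.12) by day 10.

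**Figure D1:**
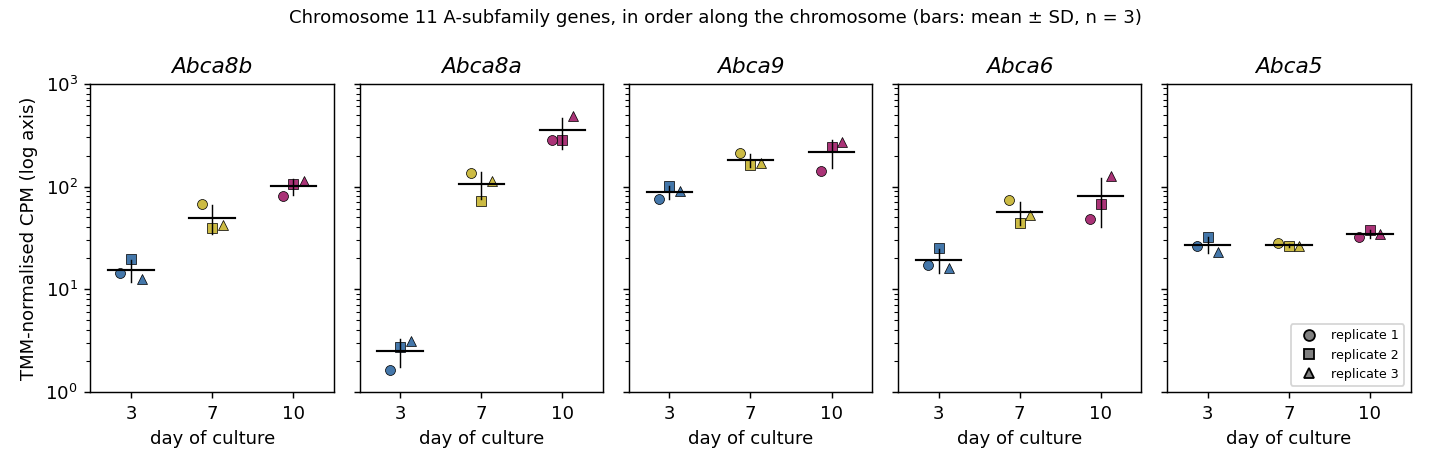
TMM-normalised CPM on a log axis against day of culture for the 5 neighbouring A-subfamily genes, in their order along chromosome 11. Each symbol is a library, and bars give the mean ± SD of 3 libraries. Abca8a goes from 2.52 CPM on day 3 to 350 CPM on day 10, while Abca5 at the other end stays between 23.1 and 38.1 CPM.

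Summed over the 5 neighbours, the level was 153 ± 24.9 CPM at first, 421 ± 87.5 CPM on day 7 and 784 ± 225 CPM on day 10 (SD, n = 3). The other 45 members summed to 1114 ± 16.9, 1128 ± 14.2 and 1169 ± 47.8 CPM on these days (SD, n = 3). The neighbours' part of the summed CPM of the 50 members was 12.1% ± 1.55 on day 3, 27.1% ± 4.27 on day 7 and 39.6% ± 6.16 on day 10. Within the 5, Abca8a made up 1.64% on day 3 and 44.6% on day 10. Genes next to the cluster on both sides went in different directions over the same days. Fam20a, which encodes a pseudokinase of the secretory pathway and lies 209043 bases before the cluster, had 1.61 CPM on day 3 and 37.1 CPM on day 10 (log2 change 4.52, SE 0.31, adjusted p = 3.5e-06, edgeR). Prkar1a, further out on that side, encodes a regulatory subunit of protein kinase A and had 633 and 662 CPM (log2 change 0.06, SE 0.09, adjusted p = 0.58, edgeR). On the other side Map2k6, a MAP kinase kinase gene 61379 bases beyond Abca5, fell from 18.2 to 6.94 CPM (log2 change -1.39, SE 0.13, adjusted p = 1.8e-05, edgeR).

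Across the family, 35 of the 50 members had enough counts to be tested and 15 did not. A gene was called when its adjusted p from edgeR's quasi-likelihood test, corrected over all 14940 genes tested, was under 0.05. From day 3 to day 7, 11 of the 35 were higher and 8 were lower, which is 54.3% called against 41.8% of all tested genes (22.8% higher and 19% lower). From day 3 to day 10, 16 were higher and 9 lower, which is 71.4% against 56.7% of all tested genes (29.5% higher and 27.2% lower). Without the 6 genes that were chosen for their change, 29 remained, of which 11 were higher and 8 lower by day 10, or 65.5%. Their median log2 change was 0.05, beside 0.00 for all tested genes. By day 7 the same 29 gave 7 higher and 7 lower, or 48.3%. Outside the 6 genes, the excess of higher calls by day 10 was lost without day 3 replicate 3 (6 higher, 9 lower) or replicate 1 (7 and 8). The comparisons with day 3 share its libraries and are not independent.

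Between day 7 and day 10, 4 members were higher by edgeR and 0 lower, or 11.4% against 8.51% of all tested genes (4.41% higher and 4.1% lower). Outside the 6 genes chosen for their change it was 2 of 29, or 6.9%, namely Abcc4 and Abcd2. Over the 35, the counts at an unadjusted p under 0.05 were 8 higher and 3 lower, and DESeq2 called 7 higher and 2 lower. Only 1 gene was called when the fit held the libraries of those days alone, or when day 7 replicate 2 was left out, so the count for this step depends on single libraries. The second step (day 10 against day 7) differed from the first (day 7 against day 3) in 3 of the 35, or 8.57% against 8.03% of all tested genes (2.06% with a larger second step and 5.96% with a smaller one). Outside the 6 chosen genes it was 2 of 29, or 6.9%, and Abcc12 was among them, with a smaller second step.

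**Figure D2:**
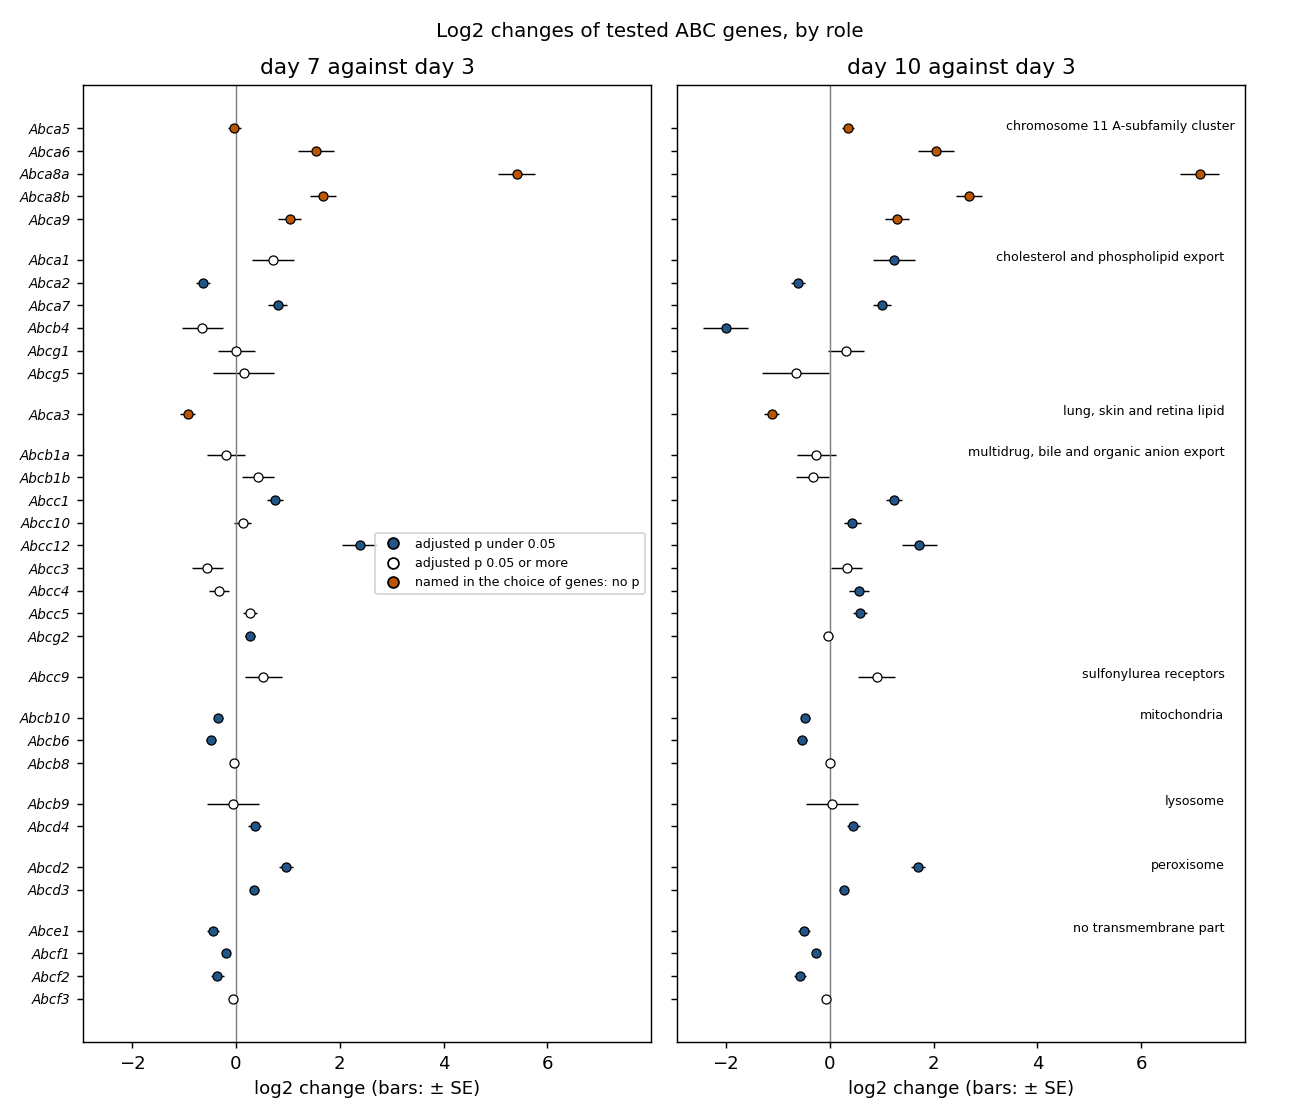
Log2 change from day 3 to day 7 (left) and to day 10 (right) of 33 of the 35 tested members, grouped by role, with bars of ± SE. Filled blue points passed the test, open points did not, and orange points are the 6 genes for which no p is given; on day 10 Abca8a stands at 7.12 and Abcb4 at -2.0, the lowest.

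Exporters of cholesterol and phospholipid outside the cluster were split. Of 8 members in this group, 6 were tested. By day 10, 2 had risen (Abca1 and Abca7) and 2 had fallen (Abca2 and Abcb4), beside 29.5% and 27.2% of all tested genes. Abca7 (chromosome 10, 79996453 to 80015572), a phospholipid transporter related to Abca1, had 18.6, 18.8 and 19.3 CPM on day 3, 39.1, 25.9 and 33.8 CPM on day 7, and 45.9, 29.3 and 39.0 CPM on day 10. Every later library exceeded every day 3 library, while days 7 and 10 overlapped. Its log2 change was 1.01 (SE 0.18) by day 10 (adjusted p = 0.00091, edgeR), and all 3 libraries of day 10 showed the rise.

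Abca1 passes cholesterol and phospholipid to apolipoprotein A-I and is a target of the sterol sensor LXR. It had 13.6, 15.5 and 14.5 CPM on day 3, 37.1, 18.5 and 15.7 CPM on day 7, and 30.4, 18.6 and 53.6 CPM on day 10. All later libraries lay above day 3, but by very different margins, with day 10 replicate 3 the highest. The log2 change by day 10 was 1.24 (SE 0.40, adjusted p = 0.024, edgeR). Without day 10 replicate 3 it was 0.76 with an adjusted p of 0.13 by edgeR, and without day 3 replicate 1 or 3 it also missed the threshold, with adjusted p of 0.065 and 0.056.

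Abcg1, which moves cholesterol to HDL particles and is likewise an LXR target, had 2.87, 2.21 and 2.69 CPM on day 3, 3.32, 1.93 and 2.54 CPM on day 7, and 4.96, 1.72 and 3.04 CPM on day 10. The 3 days overlapped, and the log2 change by day 10 was 0.31 (SE 0.35, adjusted p = 0.47, edgeR). Of 14 tested genes in a list of LXR and sterol handling, 9 were higher and 2 lower by day 10, with a median log2 change of 0.46, beside 29.5% higher and 27.2% lower among all tested genes. Nr1h3, the gene of LXR alpha, went from 2.33 ± 0.547 to 19.7 ± 5.65 CPM (SD, n = 3; log2 change 3.08, SE 0.26, adjusted p = 8.8e-06, edgeR). Mylip, an LXR target that encodes a ubiquitin ligase, went from 30.6 ± 2.40 to 79.1 ± 25.5 CPM (adjusted p = 0.00058, edgeR), with 108 CPM in day 10 replicate 3 and 62.8 and 66.0 CPM in the other libraries of that day. Scarb1, the HDL receptor gene, was among the 2 that were lower, at 72.0 and 32.8 CPM.

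Abca2 (chromosome 2, 25428599 to 25448544), a lysosomal lipid transporter best known from myelinating cells, had 18.6, 18.1 and 17.2 CPM on day 3, 11.7, 12 and 11.2 CPM on day 7, and 13.5, 12.8 and 9.28 CPM on day 10. No later library reached a day 3 value. The log2 change was -0.63 (SE 0.14, adjusted p = 0.0047, edgeR) by day 7 and -0.60 (SE 0.14, adjusted p = 0.0037, edgeR) by day 10. Abcb4, the phosphatidylcholine flippase of bile, fell step by step from 2.95, 2.45 and 2.38 CPM on day 3 over 1.64, 1.77 and 1.56 CPM on day 7 to 0.446, 1.24 and 0.247 CPM on day 10. The days did not overlap, and the log2 change by day 10 was -2.0 (SE 0.44, adjusted p = 0.0030, edgeR), whereas the first step alone was not called (adjusted p = 0.22, edgeR). Neural markers summed to 125 to 170 CPM on day 3 and 3.72 to 5.44 CPM on day 10. Their part in these falls was not tested.

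Abca3 (Entrez 27410, chromosome 17, 24351921 to 24410204, plus strand) had 14.7, 13 and 13.6 CPM on day 3, 7.30, 7.04 and 7.34 CPM on day 7, and 5.55, 5.68 and 7.76 CPM on day 10. All day 3 libraries lay above all later ones, and days 7 and 10 overlapped through day 10 replicate 3. The log2 change was -0.93 (SE 0.14) by day 7 and -1.12 (SE 0.15) by day 10. An annotated transcript on the opposite strand, D330041H03Rik, covers 9.75% of its exon bases, and whether counting used strand is not given in the sources used here. Its neighbour and relative Abca17 was nearly silent, with at most 0.0882 CPM in any library.

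Of 8 other genes of surfactant and lamellar bodies, 2 had enough counts to be tested and neither was called. Lpcat1, which makes surfactant phosphatidylcholine but is expressed in many cells, stood at 38.4 ± 2.11 CPM on day 3 and 41.7 ± 5.02 CPM on day 10 (SD, n = 3). Lamp3, a lamellar body membrane protein gene, stood at 1.37 ± 0.0805 and 1.01 ± 0.300 CPM (SD, n = 3). Sftpc, the gene of surfactant protein C, averaged 0.0683 CPM on day 3, under the floor of 3 counts, and Sftpd and Slc34a2 had no count. Markers of lung epithelium summed to 1.13 to 1.94 CPM on day 3 and 0.106 to 0.320 CPM on day 10. Abca3 was above 5 CPM in every library, and which cells held its transcripts was not tested.

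Exporters of drugs and organic anions were the largest group, with 14 members. Of the 9 tested, 5 were higher by day 10 (Abcc1, Abcc4, Abcc5, Abcc10 and Abcc12) and the other 4 were not called. Among all tested genes, 29.5% were higher and 56.7% were called in either direction. Abcc1 (chromosome 16, 14361453 to 14474878), which exports glutathione conjugates and leukotriene C4, had 26.7, 29.5 and 27.1 CPM on day 3, 47.1, 48.3 and 45.9 CPM on day 7, and 85.1, 60.8 and 52.1 CPM on day 10. The 3 days did not overlap, and the log2 change was 0.76 (SE 0.15, adjusted p = 0.0031, edgeR) by day 7 and 1.25 (SE 0.15, adjusted p = 9.6e-05, edgeR) by day 10.

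Abcc5, an exporter of cyclic nucleotides and of haem, was the most abundant C member per length. It had 74.2, 74.9 and 72.7 CPM on day 3, 96.0, 73.4 and 97.5 CPM on day 7, and 117, 91.0 and 126 CPM on day 10. Day 7 replicate 2 remained at the day 3 level, and all 3 libraries of day 10 were higher than day 3 (log2 change 0.59, SE 0.13, adjusted p = 0.0038, edgeR).

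Abcc12 (chromosome 8, 86504568 to 86580688), a gene with no settled substrate, was higher on both later days than on day 3, with its highest library on day 7. It had 0.890, 0.789 and 0.617 CPM on day 3, 3.09, 5.51 and 3.51 CPM on day 7, and 3.62, 2.24 and 1.87 CPM on day 10. Days 7 and 10 overlapped through day 10 replicate 1. The log2 change was 2.38 (SE 0.34, adjusted p = 0.00039, edgeR) by day 7, the largest first step among tested members other than Abca8a, and 1.73 (SE 0.34, adjusted p = 0.0017, edgeR) by day 10. The second step was smaller than the first by 3.04 on the log2 scale (a difference of -3.04, SE 0.52, adjusted p = 0.0069, edgeR), although the fall from day 7 to day 10 itself was not called (adjusted p = 0.21, edgeR).

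Abcc4, an exporter of cyclic AMP and prostaglandins, averaged 5.96 ± 1.03, 4.76 ± 0.242 and 8.82 ± 2.09 CPM on the 3 days (SD, n = 3). It was higher on day 10 than on day 7 (log2 change 0.89, SE 0.19, adjusted p = 0.023, edgeR) and than on day 3 (log2 change 0.57, SE 0.19, adjusted p = 0.029, edgeR). The latter call was lost without day 10 replicate 3 or day 3 replicate 1 (adjusted p = 0.11 in both), without day 3 replicate 3 (adjusted p = 0.084) and with the libraries of those days alone, and the former without any single library of day 7 (adjusted p up to 0.090). Abcc10 averaged 20.6 ± 0.307 CPM on day 3 and 28 ± 4.13 CPM on day 10 (SD, n = 3; log2 change 0.44, SE 0.16, adjusted p = 0.035, edgeR), a call that 8 of 18 alternative settings did not keep. Abcc3, a bile acid and glucuronide exporter, averaged 6.58, 4.49 and 8.23 CPM and was not called.

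Abcg2, the urate and drug exporter that marks side population cells, was abundant throughout. It averaged 102 ± 1.67 CPM on day 3, 123 ± 12.8 CPM on day 7 and 99.5 ± 11.1 CPM on day 10 (SD, n = 3). The rise by day 7 was small (log2 change 0.27, SE 0.10, adjusted p = 0.048, edgeR) and 11 of 18 alternative settings did not call it, among them each that left out a day 3 library. By day 10 the log2 difference from day 3 was -0.04 (SE 0.10, adjusted p = 0.74, edgeR).

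Abcb1a and Abcb1b together encode the mouse counterparts of the human P-glycoprotein MDR1. Their coding sequences matched at 88.0% of aligned bases with an identical run of 338 bases, and 17.6% of the 50-base windows of Abcb1a occurred in another member, so the division of reads between them is uncertain. Abcb1a had 0.647, 0.828 and 0.749 CPM on day 3, 0.691, 0.864 and 0.390 CPM on day 7, and 0.397, 0.841 and 0.600 CPM on day 10. Abcb1b had 4.21, 4.73 and 4.10 CPM on day 3, 4.67, 8.56 and 4.37 CPM on day 7, and 3.57, 4.60 and 2.26 CPM on day 10. The days overlapped for both genes, and neither was called in any comparison by edgeR (log2 change by day 10 -0.26, SE 0.37 and -0.33, SE 0.31). Nrf2 target genes are the oxidative stress set that often accompanies such exporters. Of 8 such genes, 4 were higher and 3 lower by day 10, beside 29.5% and 27.2% of all tested genes. Nqo1, a quinone reductase gene, was among the higher ones at 5.01 and 14.7 CPM, and Txnrd1, thioredoxin reductase, among the lower ones at 184 and 96.5 CPM.

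Abcc9 and Abcc8 encode the sulfonylurea receptors, which are regulatory subunits of ATP-sensitive potassium channels and transport nothing themselves. Abcc8 was too low to test. Abcc9 had 39.6, 49.0 and 39.6 CPM on day 3, 61.5, 52.6 and 70.3 CPM on day 7, and 47.0, 53.8 and 138 CPM on day 10. Day 10 replicate 3 stood far above all other libraries, and without it the day 10 values lay within the range of the earlier days. The log2 change by day 10 was 0.90 (SE 0.36, adjusted p = 0.054, edgeR), and it was 0.24 without that library.

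Kcnj8, the pore subunit gene that pairs with Abcc9, had 5.06, 5.80 and 5.16 CPM on day 3, 7.20, 8.39 and 7.73 CPM on day 7, and 5.75, 6.92 and 18.0 CPM on day 10. The same library was the high one. Its log2 change by day 10 was 0.95 (SE 0.37, adjusted p = 0.053, edgeR). In the list of channel and pericyte genes, 5 of 7 tested were higher and 1 lower by day 10. Among all tested genes, 29.5% were higher and 27.2% lower. Cspg4, the NG2 proteoglycan gene of pericytes, went from 35.2 to 258 CPM, and Rgs5, another pericyte gene, fell from 6.54 to 0.619 CPM.

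**Figure D3:**
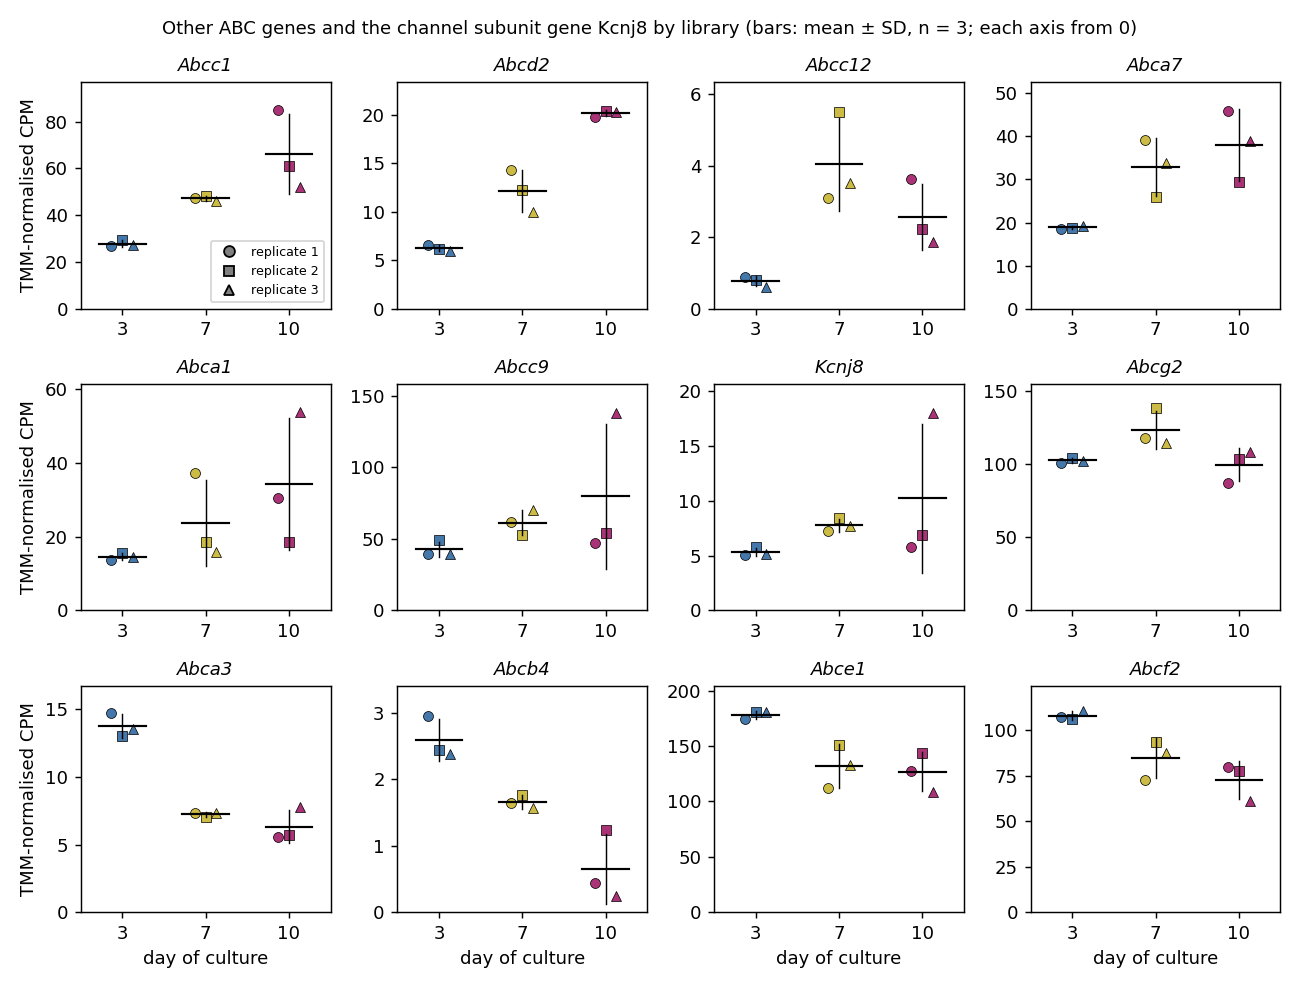
TMM-normalised CPM against day of culture for 11 ABC genes outside the chromosome 11 cluster and for Kcnj8, each on a linear axis from 0, with 1 symbol per library and bars of mean ± SD (n = 3). Abcc1 and Abcd2 step up without overlap between days, Abcc9 and Kcnj8 share a single high library on day 10 (138 and 18.0 CPM), and Abca3, Abcb4, Abce1 and Abcf2 are lower on day 10 than on day 3.

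The 4 mitochondrial members moved down or not at all. By day 10, 3 were lower and 1 was not called, beside 27.2% lower among all tested genes. Abcb6 takes part in porphyrin transport, and Abcb10 supports haem synthesis. Abcb6 had 23.8, 23.6 and 26.1 CPM on day 3, 16.5, 19.0 and 17.3 CPM on day 7, and 17.2, 18.0 and 15.5 CPM on day 10 (log2 change by day 10 -0.54, SE 0.10, adjusted p = 0.00094, edgeR). A transcript on the same strand, Gm29253, covers 55.2% of its annotated exon bases, so that part of its reads is not assigned without doubt.

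Abcb10 had 36.8, 39.5 and 42.5 CPM on day 3, 30.6, 30.9 and 32.8 CPM on day 7, and 27.2, 30.8 and 27.8 CPM on day 10 (log2 change by day 10 -0.47, SE 0.08, adjusted p = 0.00095, edgeR). In Abcb6 and Abcb10 every day 3 library exceeded every later library. Abcb8, a subunit of a mitochondrial potassium channel with a role in iron export, stood at 35.4 ± 1.06, 34.3 ± 2.73 and 35.5 ± 0.878 CPM (SD, n = 3), and its log2 change by day 10 was 0.00 (SE 0.08, adjusted p = 0.97, edgeR).

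Of 14 tested genes of haem and iron-sulfur synthesis, 5 were higher and 3 lower by day 10, close to the 56.7% called among all tested genes. Alas2, the erythroid enzyme that starts haem synthesis, fell from 9.03 to 0.511 CPM. Alad and Fech, the enzymes that join the first pyrrole and insert the iron, were higher, at 45.4 and 91.0 CPM for Alad and at 42.0 and 65.2 CPM for Fech. Erythroid markers summed to 987 to 1174 CPM on day 3 and to 4.28 to 6.30 CPM on day 7, the days between which the 3 mitochondrial members fell. Their part in that fall was not tested.

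All 3 peroxisomal members were higher by day 10, beside 29.5% of all tested genes. Abcd2 (chromosome 15, 91145871 to 91192007), which imports very long-chain and polyunsaturated fatty acids, was the clearest. It had 6.55, 6.11 and 5.95 CPM on day 3, 14.3, 12.2 and 9.91 CPM on day 7, and 19.8, 20.4 and 20.3 CPM on day 10. The days were fully separated, and the log2 change was 0.97 (SE 0.14, adjusted p = 0.00039, edgeR) by day 7 and 1.70 (SE 0.14, adjusted p = 6.3e-06, edgeR) by day 10. The step from day 7 to day 10 was also called (log2 change 0.73, SE 0.13, adjusted p = 0.012, edgeR), but not without day 7 replicate 2 or with the libraries of those days alone (adjusted p up to 0.054).

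Abcd3, which imports branched-chain and bile acid precursors, was the most abundant D member per length and averaged 94.0 ± 4.15, 120 ± 12.5 and 113 ± 7.10 CPM (SD, n = 3). Its log2 change was 0.35 (SE 0.09, adjusted p = 0.0089, edgeR) by day 7 and 0.27 (SE 0.09, adjusted p = 0.022, edgeR) by day 10, and the later call was lost in 5 of 18 alternative settings, with adjusted p up to 0.099. Of 10 peroxisome genes, 6 were higher and 1 lower by day 10, beside 29.5% and 27.2% of all tested genes. Acaa1a, the thiolase that ends a round of peroxisomal beta-oxidation, was higher, at 38.7 and 61.4 CPM. Hsd17b4, an enzyme of an earlier step, fell from 65.8 to 46.9 CPM.

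Of the lysosomal pair, Abcd4, which releases vitamin B12 from lysosomes, averaged 14.5 ± 1.36 CPM on day 3 and 19.9 ± 2.15 CPM on day 10 (SD, n = 3; log2 change 0.46, SE 0.12, adjusted p = 0.010, edgeR). Its call by day 7 (adjusted p = 0.040, edgeR) was lost in 8 of 18 alternative settings. Abcb9, a lysosomal peptide transporter, stayed below 1 CPM and was not called.

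The members without a membrane part were among the most abundant. By day 10, 3 of the 4 were lower and 1 was not called, beside 27.2% lower among all tested genes. Abce1, which splits ribosomes after termination, had 174, 180 and 180 CPM on day 3, 112, 151 and 133 CPM on day 7, and 128, 144 and 109 CPM on day 10 (log2 change by day 10 -0.49, SE 0.12, adjusted p = 0.0059, edgeR). Abcf2 had 107, 106 and 111 CPM on day 3, 72.6, 93.8 and 87.5 CPM on day 7, and 80.0, 77.5 and 60.9 CPM on day 10 (log2 change by day 10 -0.57, SE 0.12, adjusted p = 0.0022, edgeR). Abcf1, which acts in translation initiation with eIF2, had 135, 141 and 138 CPM on day 3, 115, 124 and 124 CPM on day 7, and 117, 122 and 108 CPM on day 10 (log2 change by day 10 -0.26, SE 0.07, adjusted p = 0.0083, edgeR).

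In these 3 genes all day 3 libraries were above all later libraries. The day 7 calls of Abcf1 and Abcf2 were lost in 8 and 5 of 18 alternative settings, and that of Abce1 without day 7 replicate 1 (adjusted p = 0.057). Abcf3, a partner in the amino acid starvation response, held 57.0 ± 2.00, 54.8 ± 0.572 and 54.1 ± 0.783 CPM (SD, n = 3), and its log2 change by day 10 was -0.08 (SE 0.06, adjusted p = 0.32, edgeR). Among 7 genes that work with these proteins in ribosome recycling and initiation, 3 were lower by day 10, beside 27.2% of all tested genes. The other 4 were not called. The lower ones were Eif2s1, the alpha subunit of eIF2, at 87.1 and 59.7 CPM, Gcn1, at 175 and 146 CPM, and Eif2ak4, at 55.5 and 48.0 CPM.

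Levels of different members can be compared only per length, as RPKM (here CPM divided by kilobases of annotated exon). Averaged over the 9 libraries, the highest levels were those of Abcf2 (34.5 RPKM), Abcf1 (28.3 RPKM), Abca8a (24.4 RPKM) and Abce1 (24.2 RPKM). On day 3 the order was led by Abcf2 at 42.1 ± 0.877 RPKM, Abcf1 at 31.3 ± 0.702 RPKM and Abce1 at 29.7 ± 0.606 RPKM (SD, n = 3). Abca8a ranked 29 of 50 on day 3 with 0.401 ± 0.122 RPKM, 6 on day 7 with 17.0 ± 5.01 RPKM and 1 on day 10 with 55.9 ± 18.7 RPKM (SD, n = 3). On day 10 it was followed by Abcf2 at 28.3 ± 4.06 RPKM, Abca9 at 27.1 ± 8.39 RPKM and Abcf1 at 26.2 ± 1.58 RPKM, which do not differ beyond their spread. With the longest transcript as the length, Abcf1 led the average over the 9 libraries with 39.5 RPKM, Abca8a ranked 5 with 27.3 RPKM, and no order among the leading genes is therefore firm.

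**Figure D4:**
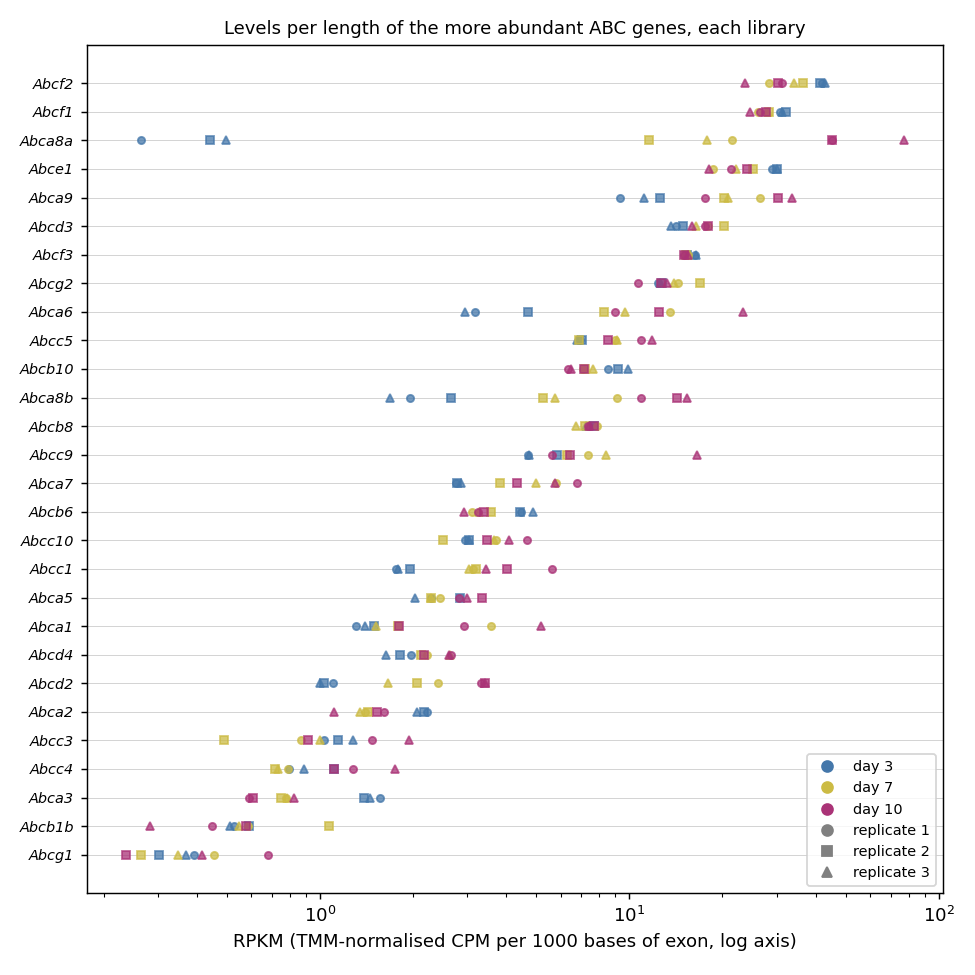
RPKM on a log axis of 28 members among the 30 with the highest average, 1 symbol per library, coloured by day and shaped by replicate. Members differ in how far their 9 libraries spread, from 15.1 to 16.4 RPKM for Abcf3 and from 1.68 to 15.4 RPKM for Abca8b. Abca8a runs furthest, from 0.401 RPKM on average on day 3 to 55.9 RPKM on day 10.

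The remaining 15 members were too low to test, with 1 to 86 counts summed over the 9 libraries and at most 0.688 CPM in any library. Of these, 8 had 10 counts or fewer in all: Abca13, Abca14, Abca15, Abca16, Abca17, Abcb5, Abcb11 (the bile salt export pump) and Abcc2. The others were Abca4 (retina), Abca12 (skin), Abcc6, Abcc8, Abcg3, Abcg4 and Abcg8. Abcg5, which pairs with Abcg8 to export plant sterols, passed the filter with 0.405, 0.465 and 0.260 CPM on the 3 days and was not called. Most of them were too low for any difference between days to be detected. With no filter on low counts, Abca13 was called lower by day 10 (adjusted p = 0.041, edgeR), on 6 counts summed over day 3 and none on day 10. Abcg4 passed the filter and was called lower by day 10 without day 3 replicate 3 (adjusted p = 0.021, edgeR) or without day 10 replicate 1 (adjusted p = 0.046, edgeR).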

How the data were processed

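Poly(A) RNA of 9 pneumosphere libraries, 3 on each of days 3, 7 and 10, was analysed from the table of whole-number read counts per Entrez gene ID that the authors deposited, not normalised. Per the submitters' processing notes, featureCounts and mm10 were used. The aligner, annotation, strand setting and rule for reads with several matches are not given in these sources. All 9 columns matched a sample by name. RefSeq named 25275 of the 27179 IDs.

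Genes kept by filterByExpr (14940) entered edgeR 4.0.16 in R 4.3.3 (TMM scaling, robust quasi-likelihood F test, day as the factor, all 9 libraries). A call is an adjusted p under 0.05 by Benjamini-Hochberg over all tested genes. SE is the size of the log2 change over the root of F. The test was also tried on simulated data, and no result here rests on that trial. Gene positions came from RefSeq. The exon lengths, strands and overlaps came from GENCODE M21 and coding sequences were aligned with MAFFT 7.526. Levels are TMM-normalised CPM. Alternatives were other scalings, filters and sample sets, a replicate block and DESeq2 1.42.0.

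The members and all gene lists were chosen with earlier results of these data known. Values in all 9 libraries are given for the 5 chromosome 11 genes, Abca3, Abca17, Abcb1a, Abcb1b, Abca1, Abcg1, the 4 members with the highest RPKM, and up to 10 largest rises and 10 largest falls among called members with at least 1 CPM on the higher day. Abcc9 and Kcnj8 were shown by library after their values were seen. List genes are named beside the members they work with. Some members and list genes, among them members that the rule would name, are not reported here.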

Additional observations from a re-analysis of the deposited data

How the results depend on the processing

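Total counts of called members from day 3 held best, but their directions did not. Leaving out each library in turn gave 14 to 21 by day 7 and 20 to 25 by day 10, and outside the 6 genes chosen for their change 9 to 16 and 15 to 19, with the 9 without day 7 replicate 1. By day 10 the 16 higher and 9 lower became 10 and 10 without day 3 replicate 3, and 11 and 9 without day 3 replicate 1. Outside the 6 genes, the 11 higher and 8 lower became 6 and 9, and 7 and 8, in the same order. From day 7 to day 10 the count was 4, but 1 with the libraries of those days alone, 9 with DESeq2 and 1 to 6 with a library left out. Outside the 6 genes it was 2, and 0, 6 and 0 to 5 under those settings. By library size alone that step had 4 members higher and 1 lower, and 2 and 1 outside the 6 genes. The cause was not tested. Pairs of the same replicate number had r from -0.069 to 0.433, some above 0.1 and some not. Unlike replicate numbers of different days had r from -0.356 to 0.221. Pairing was neither assumed nor excluded. With a replicate block the counts were 19, 25 and 4, and 14, 19 and 3 outside the 6 genes.

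Log2 changes of genes with a p were followed under the alternatives for members, list genes and neighbours of the cluster. Of these values, 1662 kept direction and side of the threshold, 145 lost the call and 14 changed sign. A further 3 gained the call (all Abcc9 by day 10, adjusted p down to 0.013). Changes without a call were followed only for members from day 3 to day 10, so gains elsewhere were not counted. From day 7 to day 10 outside the 6 genes, DESeq2 called 4 higher and 2 lower, against 2 and 0 in the main fit. Of the log2 changes of the 6 genes, 322 kept direction and 2 changed sign. The sign changes were in values near 0, apart from that of Abcg1 by day 10 (0.310). Abca5 by day 7 (-0.03) ran from -0.133 to 0.118 with a library left out, the latter without day 3 replicate 2, and was 0.119 without both that library and day 10 replicate 3. By day 10, Abcb8 (0.00385) became -0.00403 and -0.00405 with DESeq2 size factors and with its Wald test, -0.0248 with upper-quartile factors, -0.0860 by library size alone and -0.000299 with a filter at 1 CPM, and -0.0171 to 0.0272 with a library left out (0.0362 without both day 3 replicate 2 and day 10 replicate 3). Abcb9 became -0.0384 by library size alone and ran from -0.206 to 0.353 with a library left out (0.406 without both day 3 replicate 2 and day 10 replicate 3). Abcg1 ran from -0.112 to 0.617 and Abcg2 from -0.0992 to 0.0508 in that way. The planned length of the longest RefSeq transcript was not run; the longest GENCODE transcript was used in its place, chosen after seeing the data. Depth limits the 15 untested members.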

Other observations

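ABC genes with other symbols and their partners were also measured. Tap1 and Tap2 form the transporter that loads peptides onto MHC class I. Tap1 had 4.0, 3.87 and 2.95 CPM on day 3, 8.55, 7.57 and 8.04 CPM on day 7, and 13.9, 12.4 and 14.3 CPM on day 10. Tap2 had 0.971, 1.42 and 0.705 CPM on day 3, 9.08, 6.09 and 6.75 CPM on day 7, and 14.5, 12.5 and 17.3 CPM on day 10. For both genes the 3 days did not overlap, and the log2 change by day 10 was 1.90 for Tap1 (SE 0.15, adjusted p = 4.5e-06, edgeR) and 3.82 for Tap2 (SE 0.26, adjusted p = 2.5e-06, edgeR). In the list of peptide loading genes, which holds Tap1 and Tap2, 8 of 8 tested were higher by day 10, beside 29.5% of all tested genes. The call of Psmb9, a proteasome subunit gene, was lost in 8 of 16 alternative settings (adjusted p up to 0.13, edgeR and DESeq2). Other members were B2m (76.1 and 176 CPM), Tapbp (8.82 and 28.5 CPM) and H2-K1 (2.10 and 9.53 CPM) on days 3 and 10, while Nlrc5 was too low to test. Leukocyte markers summed to 6.39 to 9.04 CPM on day 3 and 2.96 to 6.45 CPM on day 10.

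Cftr, the ABC chloride channel of airway epithelium, had 5 counts on day 3, 65 on day 7 and 86 on day 10, summed over the 3 libraries of each day. Its level averaged 0.0664, 0.799 and 1.14 CPM, and the log2 change by day 10 was 3.97 (SE 0.60, adjusted p = 0.00032, edgeR). All later libraries exceeded those of day 3. Epcam, an epithelial surface gene, had 0.599 CPM on day 3 and 0.113 CPM on day 10 in the same libraries.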
